A study of Capra hircus with 6 samples.

Results

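The genes described here encode the metalloproteinases that cut the extracellular matrix and the cell surface, together with their tissue inhibitors. They were taken by symbol, as every row of the deposited tables whose name begins with MMP, ADAM, ADAMTS or ADAMTSL and a number, or is TIMP1 to TIMP4. Earlier results of these data were known when this rule was set. The rule found 55 genes of the 16262 rows that carry a gene symbol. These were 18 MMPs, 4 TIMPs, 12 ADAMs, 16 ADAMTS genes and 5 ADAMTS-like genes.

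Messenger RNA was sequenced in 6 libraries of goat (Capra hircus) adipose mesenchymal stem cells, the stromal progenitors of fat tissue. The control group holds 3 libraries labelled WT in genotype, and the TAZ group holds 3 libraries of a line made to overexpress TAZ, the Hippo pathway coactivator encoded by WWTR1. All 6 carry the treatment label adipogenic differentiation. The labels do not give the vector of the controls, the number of clones, the time in differentiation medium, or whether replicates were separate cultures, so the p-values reflect only how far these libraries vary, and that variation may be technical. The series title also names TNF-α, which no sample label mentions.

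MMPs, ADAMs and ADAMTS enzymes share a zinc-dependent catalytic domain and are made as inactive precursors that must lose a propeptide. MMPs mostly cut matrix proteins, ADAMs mostly release the outer parts of membrane proteins, and ADAMTS enzymes are secreted proteases that bind matrix and cut proteoglycans or trim procollagen. ADAMTS-like proteins share the binding domains of ADAMTS enzymes without a protease domain. TIMPs block the active sites of these enzymes with different preferences. In fat tissue, MMP14 at the cell surface is known for opening the fibrillar collagen around growing fat cells.

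Values are FPKM, the fragments of a gene scaled to its length and to the size of the library, so levels can be compared between genes. Library totals, worked out from the smallest steps between FPKM values, ran from 33871397 to 37705644 fragments. WWTR1 stood at 29.9 to 35.9 FPKM in the controls and at 84.2 to 118 FPKM in the TAZ libraries. The stromal genes of a marker list were high in all 6 libraries (summed level 21980 to 24630 FPKM), with VIM the highest. Of 7 adipocyte markers, PPARG, ADIPOQ, PLIN1, LPL and CD36 stayed under 1 FPKM in every library. CIDEC, a lipid droplet protein, stood at 18.3 ± 1.31 FPKM in the controls and 17.8 ± 1.29 FPKM with TAZ and did not pass, and LIPE, hormone-sensitive lipase, rose from 1.01 ± 0.114 to 2.13 ± 0.111 FPKM (limma adjusted p = 0.000168). Group values below are means ± SD with n = 3 libraries. In bulk RNA, fewer cells that express a gene and less RNA per cell cannot be told apart.

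Of the 55 genes, 32 reached 1 FPKM in at least 3 libraries and were tested. In the TAZ libraries 14 of them were higher, 8 were lower and 10 did not pass (limma on log2(FPKM + 1), Benjamini-Hochberg adjusted p under 0.05). The members called made up 68.8% of those tested, against 37.9% of the 10750 genes tested in all, where 15.7% were higher and 22.1% lower. The median log2 fold change of the tested members was -0.022, and that of all tested genes -0.050. The rises were led by ADAMTS5, MMP1, ADAMTS7 and ADAMTS4, and the falls by ADAMTS14, MMP11 and ADAMTSL1. Of these, ADAMTS5 passed the filter only through the TAZ libraries, and ADAMTS14 only through the controls. The groups did not overlap for 22 of the 32 tested members, against 48.4% of all tested genes.

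**Figure D1:**
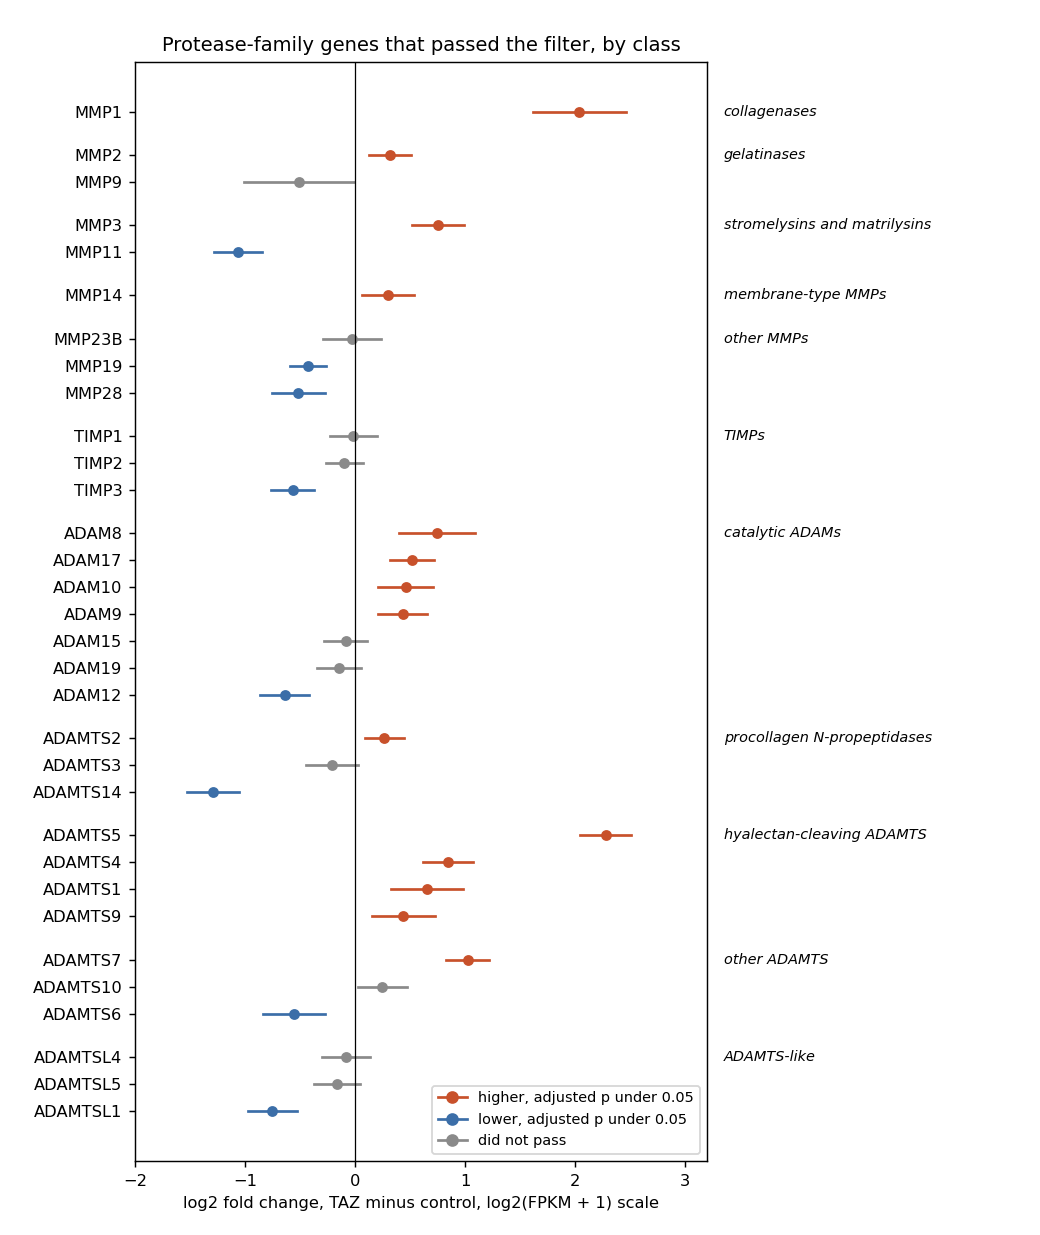
Log2 fold change on the log2(FPKM + 1) scale, TAZ minus control, for the 32 tested genes grouped by class. Points are limma estimates, bars are 95% confidence intervals, and colour gives the call. All 4 tested hyalectan-cleaving ADAMTS genes lie to the right of 0, from 0.44 for ADAMTS9 to 2.28 for ADAMTS5, while ADAMTS14 lies farthest to the left at -1.29. ADAMTS5 passed the filter only through the TAZ libraries and ADAMTS14 only through the controls.

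Among the MMPs, the collagenase MMP1 and the stromelysin MMP3 rose, while MMP11, also named a stromelysin, fell. MMP1, the interstitial collagenase that cuts the triple helix of fibrillar collagen, measured 67.5, 31.2 and 53.0 FPKM in the controls (replicates 1, 2 and 3, the order kept for all genes) and 205, 204 and 194 FPKM in the TAZ libraries. Every TAZ library was above every control, and the controls were spread much more widely than the TAZ libraries. The group values were 50.6 ± 18.3 and 201 ± 5.84 FPKM, a ratio of 3.98 (log2 fold change 2.04, SE 0.195, limma adjusted p = 3.14e-06). MMP1 moved from place 9 to place 5 in the order of the 55 levels. MMP13, the other collagenase in the tables, had 1, 0 and 3 fragments against 0, 1 and 0, so no difference was detectable at this depth.

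MMP3 (stromelysin-1), which cuts proteoglycans and can activate the MMP1 precursor, stood at 89.1, 65.5 and 84.1 FPKM in the controls and at 129.8, 145 and 127 FPKM in the TAZ libraries. The groups did not overlap, and the lowest control was again replicate 2. The ratio of means was 1.68 (log2 fold change 0.75, SE 0.111, adjusted p = 0.000152). MMP11 (stromelysin-3), which is activated inside the cell by furin-type convertases, went the other way. It stood at 20.2, 18.2 and 17.1 FPKM in the controls and at 7.54, 8.13 and 9.28 FPKM in the TAZ libraries, with a wide gap between the groups. Its level fell to 0.45 times the control (log2 fold change -1.07, SE 0.102, adjusted p = 3.11e-06). MMP7, a matrilysin, had 0 fragments in all 6 libraries, which leaves room for at most 3 fragments in each.

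In the RefSeq gene order of assembly ARS1.2, used here for neighbourhood only, MMP1, MMP3, MMP12 and MMP13 follow one another with no protein-coding gene between them. MMP27 lies 1 such gene away from MMP1. MMP1 and MMP3 rose, and the other 3 were below the filter on low values. MMP12, the macrophage elastase, stood at 0.499 ± 0.337 and 0.575 ± 0.0608 FPKM with overlapping groups, MMP13 was near 0 as given above, and MMP27 stood at 0.229 ± 0.0878 and 0.09999 ± 0.0384 FPKM, lower in every TAZ library than in any control.

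MMP2 and MMP14, the abundant collagen-degrading pair of stromal cells, rose only slightly. MMP2 (gelatinase A) was the highest MMP in every library and made up 73.9% ± 0.882 of the summed MMP level in the controls, and 71.9% ± 1.497 of it in the TAZ group. It stood at 1968, 1645 and 1769 FPKM in the controls and at 2235, 2239 and 2217 FPKM in the TAZ libraries. The TAZ libraries were nearly equal and all above the controls (ratio 1.24, log2 fold change 0.32, SE 0.089, limma adjusted p = 0.0132). With no filter on low genes this call was lost (adjusted p = 0.0773, the highest over the alternatives, with 0.00517 the lowest).

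MMP14, the membrane-anchored enzyme that activates the MMP2 precursor together with TIMP2, stood at 371, 302 and 359.5 FPKM in the controls and at 405, 491 and 379.9 FPKM in the TAZ libraries. The groups did not overlap, but control replicate 1 and TAZ replicate 3 lay close together. The ratio was 1.24 (log2 fold change 0.30, SE 0.11, adjusted p = 0.0447). The call was lost without control replicate 2 (adjusted p = 0.156, log2 fold change 0.21), without TAZ replicate 1 (0.0557) or TAZ replicate 2 (0.195, log2 fold change 0.19). It was also lost with no filter (0.131) and with no mean-variance trend (0.0594). Over all alternatives the adjusted p ran from 0.024 to 0.195.

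MMP9 (gelatinase B) was a low gene here, at 3.44, 1.36 and 4.39 FPKM in the controls and 1.28, 1.95 and 1.89 FPKM in the TAZ libraries. Control replicate 2 lay inside the TAZ range, and MMP9 did not pass (log2 fold change -0.51, 95% confidence interval -1.01 to -0.01, adjusted p = 0.0976). Without that library it was lower in TAZ at an adjusted p = 0.000285 (log2 fold change -0.86), the lowest over the alternatives, where the highest was 0.295.

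Among the remaining MMPs, MMP19, an enzyme of basement membranes and vessel walls, was even between replicates. It stood at 120.1, 121 and 121 FPKM in the controls and at 90.1, 86.3 and 91.7 FPKM in the TAZ libraries, so that the groups were far apart relative to their spread. It fell to 0.741 times the control (log2 fold change -0.43, SE 0.0758, limma adjusted p = 0.000657). MMP28 (epilysin), another secreted MMP, stood at 14.0, 12.01 and 11.1 FPKM against 7.29, 8.82 and 8.95 FPKM without overlap, and fell to 0.675 times the control (log2 fold change -0.52, SE 0.11, adjusted p = 0.00254). MMP23B, a membrane-bound MMP without a hemopexin domain, gave 3.49 ± 0.399 and 3.42 ± 0.641 FPKM and did not pass (log2 fold change -0.03, 95% confidence interval -0.29 to 0.23, adjusted p = 0.879).

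The summed level of all 18 MMPs was 2429 ± 229 FPKM in the controls and 3104 ± 78.5 FPKM in the TAZ libraries. Without MMP2 the sums were 635 ± 69.8 and 874 ± 68.9 FPKM, and no TAZ library was below a control in either sum.

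**Figure D2:**
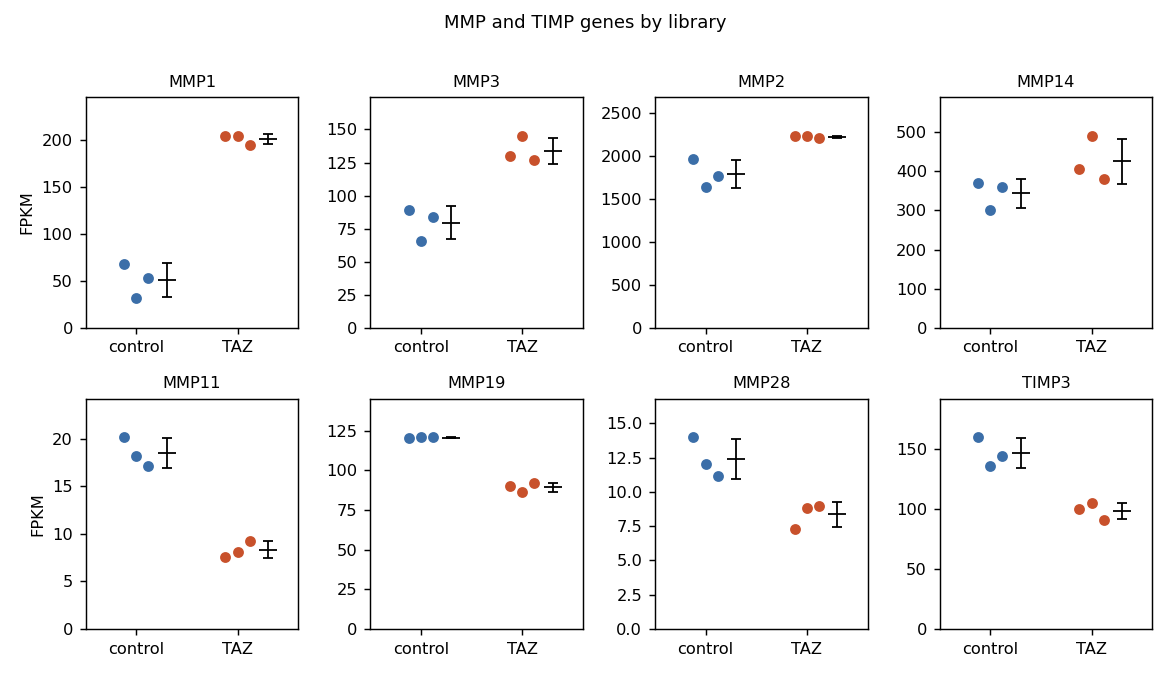
FPKM of 7 MMP genes and TIMP3 in each library, on linear axes that start at 0. Points are libraries and the cross bars are means ± SD (n = 3). MMP1 shows the widest gap relative to its level, with controls at 31.2 to 67.5 FPKM and TAZ libraries at 194 to 205 FPKM. MMP11, MMP19, MMP28 and TIMP3 lie lower in the TAZ libraries.

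The inhibitors did not move together. TIMP1, a broad inhibitor of soluble MMPs, had the highest mean of all 55 genes in the controls and the next highest after MMP2 in the TAZ group. It stood at 1907, 1878 and 1801 FPKM in the controls and at 1824, 1636 and 2089 FPKM in the TAZ libraries, with the TAZ values lying on both sides of the controls. It did not pass (log2 fold change -0.02, 95% confidence interval -0.23 to 0.20, limma adjusted p = 0.916). TIMP2, which also bridges MMP14 and the MMP2 precursor, stood at 343, 334 and 313 FPKM against 297, 310.3 and 317 FPKM. The groups overlapped and TIMP2 did not pass (log2 fold change -0.10, 95% confidence interval -0.27 to 0.07, adjusted p = 0.354).

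TIMP3, the inhibitor that binds to the matrix and blocks ADAM17 and the aggrecan-cutting ADAMTS enzymes as well as MMPs, stood at 160.2, 136 and 144 FPKM in the controls and at 99.9, 105 and 91.3 FPKM in the TAZ libraries. Every TAZ library was below every control. It fell to 0.672 times the control (log2 fold change -0.57, SE 0.0894, adjusted p = 0.00026). TIMP4 had 1, 0 and 0 fragments in the controls against 0, 1 and 0. The ratio of the summed MMP level to the summed TIMP level was 1.10, 0.938 and 1.07 in the controls and 1.39, 1.56 and 1.22 with TAZ, higher in each TAZ library than in any control. This is a ratio of RNA levels, given with no test. TIMP1 made up 79.6% ± 0.452 of the summed TIMP level in the controls and 81.8% ± 1.96 in the TAZ group. With MMP2 at 73.9% and 71.9% of the summed MMP level, the ratio rests mostly on these 2 genes.

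Among the ADAMs, 10 of the 12 genes keep the catalytic zinc site, and 7 of these were tested. In the TAZ libraries ADAM8, ADAM9, ADAM10 and ADAM17 rose, ADAM12 fell, and ADAM15 and ADAM19 did not pass. ADAM17, the sheddase that releases TNF and many growth factor precursors, stood at 26.4, 23.2 and 28.2 FPKM in the controls and at 39.6, 37.4 and 35.2 FPKM in the TAZ libraries. The groups were well apart (ratio 1.44, log2 fold change 0.52, SE 0.0942, limma adjusted p = 0.000848). ADAM10, the sheddase that cuts Notch receptors and cadherins, stood at 12.6, 11.1 and 14.8 FPKM against 19.9, 17.9 and 16.0 FPKM. It was higher in each TAZ library, by a ratio of 1.40 (log2 fold change 0.46, SE 0.114, adjusted p = 0.00689).

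ADAM9, a widely expressed ADAM, stood at 44.9, 43.0 and 55.1 FPKM in the controls and at 69.8, 64.1 and 59.3 FPKM in the TAZ libraries, with control replicate 3 nearest to the TAZ range. Its ratio was 1.35 (log2 fold change 0.43, SE 0.104, adjusted p = 0.00553). ADAM8, the most abundant ADAM here and known also from leukocytes, stood at 71.0, 46.9 and 41.8 FPKM against 74.7, 96.8 and 92.4 FPKM. Control replicate 1 came close to TAZ replicate 1, while the other libraries were far apart (ratio 1.65, log2 fold change 0.74, SE 0.161, adjusted p = 0.00282). Of 8 measured leukocyte markers, 6 stayed under 1 FPKM in every library and PTPRC, which encodes CD45, was listed at 0 in all 6. The summed level of the list was 13.6 to 16.7 FPKM in the controls and 26.7 to 27.8 FPKM in the TAZ libraries, nearly all of it CD14 and CD68, which moved in opposite directions (log2 fold changes 1.26 and -0.52).

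ADAM12 (meltrin alpha), known from muscle and fat progenitors, stood at 40.6, 40.0 and 48.9 FPKM in the controls and at 30.6, 25.6 and 25.6 FPKM in the TAZ libraries. Each TAZ library lay below each control, and the level fell to 0.632 times the control (log2 fold change -0.64, SE 0.104, limma adjusted p = 0.000328). ADAM19 (meltrin beta), its close relative, gave 37.4 ± 3.56 and 33.7 ± 1.81 FPKM and did not pass (log2 fold change -0.15, 95% confidence interval -0.34 to 0.05, adjusted p = 0.233). ADAM15 gave 16.9 ± 0.702 and 15.9 ± 1.16 FPKM and did not pass either (log2 fold change -0.09, 95% confidence interval -0.28 to 0.11, adjusted p = 0.479). The ratio of the ADAM17 level to that of its inhibitor TIMP3 was 0.165, 0.170 and 0.195 in the controls and 0.397, 0.357 and 0.385 with TAZ, again with no test of the ratio.

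**Figure D3:**
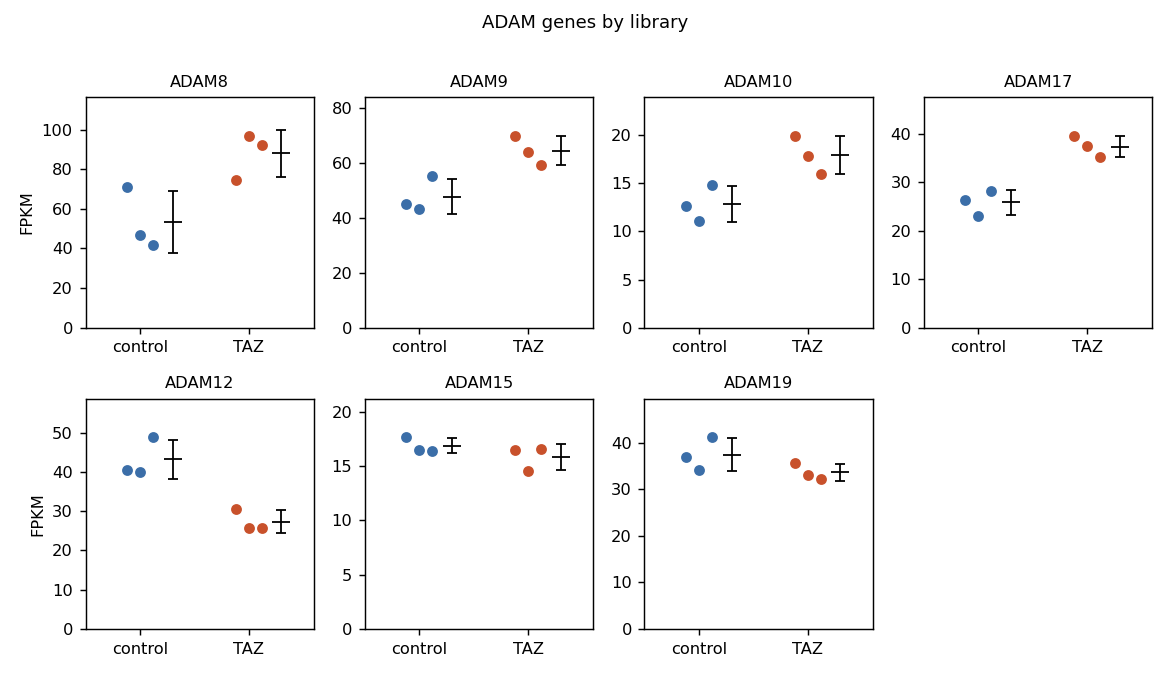
FPKM of the 7 tested ADAM genes in each library, on linear axes that start at 0, with means ± SD (n = 3). ADAM8, ADAM9, ADAM10 and ADAM17 lie higher in the TAZ libraries, ADAM12 lies lower, and the groups overlap for ADAM15 and ADAM19.

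The ADAMTS enzymes that cut hyalectans, the large hyaluronan-binding proteoglycans such as versican and aggrecan, were higher in TAZ in all 4 tested cases. ADAMTS5 passed the filter only through its TAZ libraries, as control replicates 2 and 3 were under 1 FPKM. ADAMTS15, which was lower in TAZ, stayed below the filter, so the count depends in part on the filter. ADAMTS5, an aggrecan- and versican-cutting enzyme, showed the largest fold change of the 32 tested members. It stood at 1.09, 0.828 and 0.930 FPKM in the controls and at 9.69, 7.86 and 7.84 FPKM in the TAZ libraries, resting on 669 control and 6238 TAZ fragments. Its level was 8.92 times as high (log2 fold change 2.28, SE 0.108, limma adjusted p = 2.56e-09). On recovered fragments with limma's voom, which adds no FPKM to low genes, the log2 fold change was 3.15 (SE 0.145). ADAMTS5 moved from place 32 to place 21 in the order of levels.

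ADAMTS4, the other main aggrecan-cutting enzyme, stood at 9.58, 7.66 and 7.58 FPKM in the controls and at 15.6, 16.3 and 14.9 FPKM in the TAZ libraries. The groups were clearly separate, with a ratio of 1.88 (log2 fold change 0.84, SE 0.103, adjusted p = 3.04e-05). ADAMTS1, which also cuts versican, stood at 9.90, 6.38 and 7.83 FPKM against 12.5, 16.2 and 10.9 FPKM. Control replicate 1 and TAZ replicate 3 were neighbours, and the ratio was 1.64 (log2 fold change 0.65, SE 0.152, adjusted p = 0.00453). ADAMTS1 and ADAMTS5 have no protein-coding gene between them in the RefSeq order.

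ADAMTS9, a versican-cutting enzyme, stood at 1.12, 1.49 and 2.02 FPKM in the controls and at 2.61, 2.66 and 1.996 FPKM in the TAZ libraries, with control replicate 3 just above TAZ replicate 3. It passed (ratio 1.57, log2 fold change 0.44, SE 0.132, adjusted p = 0.0199), but not without control replicate 1 (adjusted p = 0.0884), TAZ replicate 1 (0.0515) or TAZ replicate 2 (0.0696), nor with no filter (0.0802). Over all alternatives its adjusted p ran from 0.00196 to 0.0884. ADAMTS15, of the same class, was below the filter at 0.400 ± 0.0984 and 0.214 ± 0.0609 FPKM, lower in every TAZ library than in any control. Unlike the 4 tested genes of its class, it was called lower in a fit of recovered fragments that included low genes (voom log2 fold change -0.91, SE 0.300, adjusted p = 0.0302). The summed level of the 6 measured hyalectan-cleaving genes was 22.0, 16.8 and 18.8 FPKM in the controls and 40.6, 43.3 and 35.8 FPKM in the TAZ libraries. The ratio of the ADAMTS4 and ADAMTS5 sum to TIMP3 was 0.0627 ± 0.00386 in the controls and 0.244 ± 0.0118 with TAZ.

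**Figure D4:**
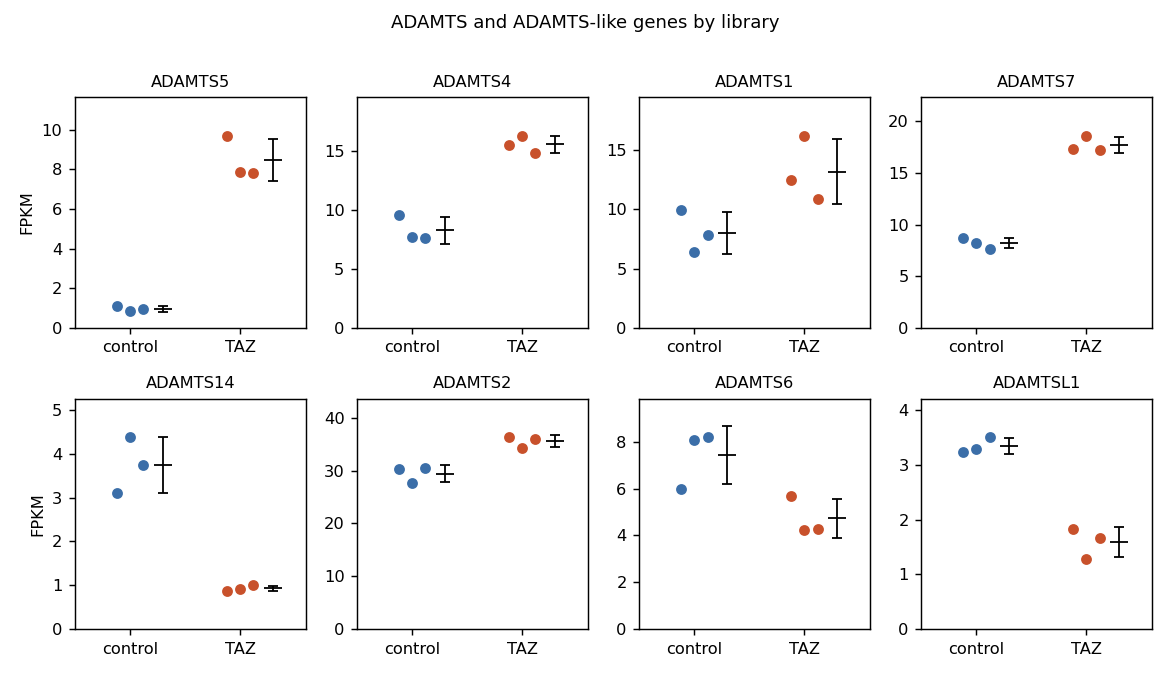
FPKM of 7 ADAMTS genes and ADAMTSL1 in each library, on linear axes that start at 0, with means ± SD (n = 3). ADAMTS5 goes from 0.828 to 1.09 FPKM in the controls to 7.84 to 9.69 FPKM in the TAZ libraries, and ADAMTS14 from 3.11 to 4.38 FPKM to 0.862 to 0.993 FPKM.

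The enzymes that remove the amino-terminal propeptide of fibrillar procollagens differed from one another. ADAMTS2, the main one here, stood at 30.3, 27.6 and 30.4 FPKM in the controls and at 36.4, 34.2 and 36.0 FPKM in the TAZ libraries. It was slightly higher in each TAZ library (ratio 1.21, log2 fold change 0.26, SE 0.0831, limma adjusted p = 0.0238). That call was lost without control replicate 2 (adjusted p = 0.101), TAZ replicate 1 (0.0806) or TAZ replicate 3 (0.0837), within a range of 0.00935 to 0.101 over the alternatives. ADAMTS14, which can act on the same procollagens, stood at 3.11, 4.38 and 3.74 FPKM in the controls and at 0.862, 0.919 and 0.993 FPKM in the TAZ libraries.

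The groups of ADAMTS14 were far apart, and its level fell to 0.247 times the control, the largest fall of the 32 tested members (log2 fold change -1.29, SE 0.111, limma adjusted p = 1.05e-06, and -2.001, SE 0.159, on recovered fragments). ADAMTS14 passed the filter only through the controls, as every TAZ library was under 1 FPKM. ADAMTS3 gave 1.11 ± 0.167 and 0.832 ± 0.198 FPKM with overlapping groups and did not pass (log2 fold change -0.21, 95% confidence interval -0.44 to 0.03, adjusted p = 0.149). The summed level of the 3 genes was 34.3 ± 1.16 and 37.3 ± 1.31 FPKM, most of it ADAMTS2.

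The remaining ADAMTS genes went in both directions. ADAMTS7, known for cutting the cartilage matrix protein COMP, stood at 8.68, 8.25 and 7.66 FPKM in the controls and at 17.3, 18.6 and 17.2 FPKM in the TAZ libraries. The replicates were tight and the groups far apart, with a ratio of 2.16 (log2 fold change 1.02, SE 0.0904, limma adjusted p = 1.45e-06). COMP itself was near 0, at 0.0677 ± 0.0114 and 0.00562 ± 0.00973 FPKM. ADAMTS6 and ADAMTS10 are close relatives linked to fibrillin microfibrils. ADAMTS6 stood at 5.998, 8.07 and 8.20 FPKM against 5.67, 4.22 and 4.28 FPKM, with control replicate 1 and TAZ replicate 1 close together, and fell to 0.636 times the control (log2 fold change -0.56, SE 0.131, adjusted p = 0.00477). ADAMTS10 gave 4.58 ± 0.537 and 5.61 ± 0.413 FPKM without overlap and did not pass (log2 fold change 0.25, 95% confidence interval 0.02 to 0.47, adjusted p = 0.0798). It passed under median-ratio scaling of the libraries (adjusted p = 0.0443, in a range of 0.0443 to 0.216 over the alternatives).

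Of the ADAMTS-like genes, whose products lack the protease domain, 3 of 5 were tested. ADAMTSL1 (punctin) stood at 3.24, 3.30 and 3.51 FPKM in the controls and at 1.82, 1.28 and 1.67 FPKM in the TAZ libraries. The groups did not overlap and the level fell to 0.475 times the control (log2 fold change -0.75, SE 0.104, limma adjusted p = 9.17e-05). ADAMTSL5, the most abundant of the class, measured 13.3, 11.8 and 13.7 FPKM against 11.8, 11.9 and 10.5 FPKM, with overlapping groups, and did not pass (log2 fold change -0.17, 95% confidence interval -0.37 to 0.04, adjusted p = 0.195). ADAMTSL4, which binds fibrillin, gave 3.11 ± 0.363 and 2.87 ± 0.198 FPKM and did not pass (log2 fold change -0.09, 95% confidence interval -0.31 to 0.13, adjusted p = 0.538).

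The other 23 genes did not reach the filter, and 2 of them, MMP7 and ADAMTS19, were listed at 0 in all 6 libraries. The groups did not overlap for 8 of the 21 with any signal, against 24.6% of all genes below the filter and above 0. These 8 were MMP15, MMP16, MMP25, MMP27, ADAM11 and ADAMTS15, lower in TAZ, and MMP17 and ADAMTS16, higher in TAZ. They were named after their values were seen. The membrane-type MMPs other than MMP14 were all low. Among them MMP15, MMP16 and MMP25 lay lower in TAZ, MMP17 lay higher and the groups of MMP24 overlapped. MMP25, which is anchored by a lipid tail and known from neutrophils, had 20, 20 and 18 fragments in the controls and 5, 7 and 11 with TAZ. In a voom fit of all genes with 10 or more fragments, which called 33.9% of them, MMP25 fell (log2 fold change -1.41, SE 0.437, adjusted p = 0.0219). The summed level of 2 measured neutrophil markers was at most 0.052 FPKM in any library.

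MMP16 had 10, 3 and 4 fragments in the controls against 0, 0 and 1 in the TAZ libraries (voom log2 fold change -3.003, SE 0.785, adjusted p = 0.00842), where 3 fragments are the limit that a count of 0 allows. MMP15 stood at 0.764 ± 0.138 and 0.452 ± 0.0966 FPKM (voom adjusted p = 0.0297), and MMP17 at 0.512 ± 0.182 and 0.853 ± 0.0443 FPKM (voom adjusted p = 0.0176). These levels are small beside the 344 ± 37.1 FPKM of MMP14 in the controls. In this fit, chosen after seeing the data, 18 of the 23 genes could be fitted. Of these, 4 were lower (MMP15, MMP16, MMP25 and ADAMTS15) and 1 higher (MMP17). That share is close to the 23% called among all genes below the filter. MMP24 gave 56 control and 53 TAZ fragments. ADAMTS16 gave 3 control and 12 TAZ fragments and was not called (voom adjusted p = 0.0878).

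ADAM11 and ADAM23, which lack the zinc site and are known mainly from nerve cells, were among the low genes, ADAM11 at 29, 33 and 39 fragments against 16, 22 and 25, and ADAM23 at 3 in all against 1. ADAM20, ADAM28, ADAM33, ADAMTS12, ADAMTS17, ADAMTS20, ADAMTSL2 and ADAMTSL3 had between 5 and 25 fragments in the controls and between 3 and 31 with TAZ, with overlapping groups.

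**Figure D5:**
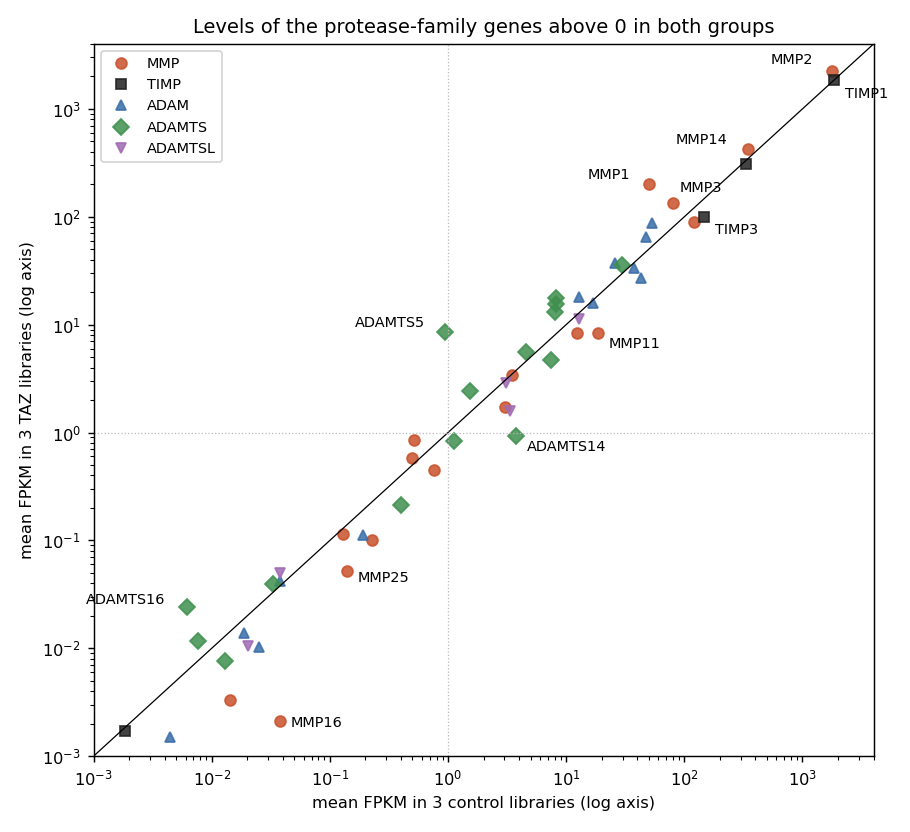
Mean FPKM in the 3 control libraries (x axis) against the 3 TAZ libraries (y axis), both on log axes, for the 53 genes above 0 in both groups. The diagonal marks equal levels and the dotted lines mark 1 FPKM. MMP2 and TIMP1 sit highest in both groups, while ADAMTS5 and MMP1 lie farthest above the diagonal among the tested genes and ADAMTS14 and MMP11 farthest below.

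Genes around the proteases were taken from lists of activators, other proteases, substrates and regulators of MMP genes. Of 25 tested genes that activate or restrain metalloproteinases, 8 were higher, 3 lower and 14 did not pass, 44% called against 37.9% of all genes. SERPINE2 (protease nexin-1), an inhibitor of urokinase and thrombin, rose from 66.8 ± 8.42 to 265 ± 6.78 FPKM. SDC4, a cell surface heparan sulfate proteoglycan, rose from 88.7 ± 9.66 to 189 ± 5.98 FPKM, and PLAU, urokinase, from 23.1 ± 1.22 to 46.1 ± 10.3 FPKM. PCOLCE, the enhancer of procollagen C-terminal processing, fell from 516 ± 43.1 to 380.4 ± 38.3 FPKM. The convertase FURIN (48.0 ± 5.96 and 42.2 ± 3.91 FPKM), the membrane MMP inhibitor RECK (3.58 ± 0.684 and 4.38 ± 0.644 FPKM) and the clearance receptor LRP1 (140.9 ± 16.1 and 154 ± 18.7 FPKM) did not pass. The 3 falls became 1 without control replicate 1 or TAZ replicate 1.

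Of 18 tested matrix and pericellular degrading enzymes outside the families, 6 were higher, 9 lower and 3 did not pass. That is 83.3% called, against 37.9% of all tested genes. The lysosomal cysteine protease CTSL rose from 3.06 ± 0.596 to 11.6 ± 0.382 FPKM, and CTSK, cathepsin K, from 420.4 ± 41.4 to 659.6 ± 18.7 FPKM. CEMIP, a hyaluronan-degrading protein, fell from 195 ± 25.9 to 56.8 ± 6.29 FPKM, and the serine protease PRSS35 from 30.8 ± 5.16 to 2.01 ± 0.828 FPKM. BMP1, which removes the other end of the procollagen chains trimmed by ADAMTS2, rose from 87.2 ± 6.85 to 119 ± 9.96 FPKM. TLL2, a tolloid-like protease on the same list, fell from 23.7 ± 2.87 to 15.0 ± 0.187 FPKM.

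Of 21 tested matrix substrates, 10 were higher, 2 lower and 9 did not pass (57.1% called, against 37.9% of all tested genes). The 10 became 6 without control replicate 1 or TAZ replicate 1. VCAN, versican, a substrate of ADAMTS1, ADAMTS4, ADAMTS5 and ADAMTS9, stood at 56.2, 44.9 and 67.7 FPKM in the controls and at 236, 234 and 182 FPKM in the TAZ libraries (log2 fold change 1.94, SE 0.138, limma adjusted p = 1.6e-07). VCAN and these 4 proteases were all called higher in TAZ. Of the same class but below the filter, ADAMTS15 was lower in TAZ and the groups of ADAMTS20 overlapped. Aggrecan (ACAN), the cartilage substrate, was near 0 with 27 control and 2 TAZ fragments. LTBP1, a latent TGF-β binding protein, rose from 32.5 ± 5.14 to 59.1 ± 4.69 FPKM, and biglycan (BGN) fell from 383 ± 26.7 to 236 ± 8.57 FPKM. Of the collagen genes on the list, COL3A1, a fibrillar collagen, rose from 3385 ± 201 to 4140.2 ± 268 FPKM. The basement membrane collagens COL4A1 and COL4A2 rose from 65.2 ± 1.48 to 99.0 ± 7.49 FPKM and from 56.6 ± 3.86 to 74.0 ± 6.89 FPKM. COL1A1 (3674 ± 73.9 and 4101 ± 126 FPKM), COL1A2 (2969.8 ± 149 and 2879 ± 227 FPKM), COL5A1, COL5A2 and COL6A1 did not pass, and COL2A1 was below the filter.

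Of 20 tested cell surface proteins that ADAM10 or ADAM17 can shed, 10 were higher, 6 lower and 4 did not pass. That is 80% called, against 37.9% of all tested genes. With any 1 library left out, the 10 became 8 to 9. SDC4 counts here and also among the genes that activate or restrain metalloproteinases. ALCAM, an adhesion molecule, rose from 26.3 ± 4.04 to 110.4 ± 8.63 FPKM. The EGF receptor ligands TGFA and EREG, both released by ADAM17, rose from 0.437 ± 0.0291 to 3.15 ± 0.42 FPKM and from 10.2 ± 0.908 to 32.2 ± 4.38 FPKM. FGFR2 fell from 2.77 ± 0.615 to 0.571 ± 0.137 FPKM. Of 23 tested transcription factors, cytokines and receptors on a list of regulators of MMP genes, 11 were higher, 4 lower and 8 did not pass. Here 65.2% were called, beside the same 37.9% of all tested genes. The mean FPKM of the cytokine genes IL6 and IL1A was 139.6 and 8.01 times as high, with nothing added. On the log2(FPKM + 1) scale their log2 fold changes ran from 5.87 to 6.25 and 2.51 to 2.86 with 1 library left out. The IL6 ratio rests on a low control level, where adding 1 FPKM lowers the fold change strongly. NFKB1, an NF-kB subunit, rose from 13.6 ± 1.18 to 32.4 ± 0.921 FPKM, while TGFB1 fell from 39.1 ± 3.69 to 26.5 ± 2.86 FPKM. In the order given, the median log2 fold changes of the tested genes of these 5 lists were 0.126, -0.169, 0.158, 0.251 and 0.179, beside -0.050 over all tested genes. How these lists moved with the proteases was not tested.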

How the data were processed

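RNA of 3 control and 3 TAZ libraries was sequenced, and the submitters' processing notes name fastp, HISAT2 and HTSeq. Genome build, strand setting and treatment of reads shared by paralogs: not given in the sources used here. The authors deposited FPKM values, per the file headers 1 column for each library, in 1 table per group with the same 16285 rows. Rows with a date for a symbol (23) were left out.

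Fragment numbers were recovered from the steps of the FPKM values. Whole numbers (within 0.02) were found for 99.99% of rows above 0, with totals that the tables fill to 99.67% to 99.71%. Recovered lengths did not exceed the RefSeq span in 637 of 638 genes with spans under 1800 bases. Fragment floors cover counting error only. Chi-square per degree of freedom was 18.29 to 28.59 between libraries of 1 group and 194.29 or more between groups, so no pair lay within sampling noise.

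Genes with 1 FPKM or more in at least 3 of 6 libraries were tested with limma 3.58.1 in R 4.3.3 (empirical Bayes with a mean-variance trend) on log2(FPKM + 1), as a two-sided test, p-values being adjusted by Benjamini-Hochberg across the 10750 genes with 0.05 as threshold. This scale understates changes of low genes. Ratios are of mean FPKM with nothing added. The fit was also run on simulated data with far fewer changed genes than were called here. That run gives no error rate for these data. Values in every library are given for the TIMPs, for the most abundant member and up to 3 called members with the largest change of each class, and for MMP1, MMP2, MMP3, MMP9, MMP13, MMP14, ADAM9, ADAM10, ADAM12, ADAM17, ADAMTS1, ADAMTS4 and ADAMTS5 whatever their p. From each list of surrounding genes, the 3 with the lowest p and the leading one in the rarer direction are named, with some others chosen after their values were seen. Members and lists were chosen with earlier results of these data known. The alternatives changed the pseudocount (0.1 or 0.5), dropped the filter or replaced it by a mean of 5 FPKM or more, used median-ratio or quantile scaling, no trend, a robust fit, a replicate block, a 0.01 threshold, limma's voom on recovered fragments, leaving out each library and, added after seeing the data, voom on genes with 10 or more fragments. Replicates carry the same numbers in both groups without any label of a shared source.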

Additional observations from a re-analysis of the deposited data

How the results depend on the processing

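In the alternatives that kept a filter on low genes, the 14 rises ranged from 10 to 15 and the 8 falls from 6 to 9. With 1 library left out, they ranged from 11 to 14 and from 8 to 9. The fits that took in low genes also counted members outside the 32. With no filter there were 12 rises, MMP17 among them, and 12 falls, with ADAM11, ADAMTS15, MMP15 and MMP25 among them. Voom on genes with 10 or more fragments gave 15 rises, MMP17 among them, and 12 falls, with ADAMTS15, MMP15, MMP16 and MMP25 among them. Of the 22 called members, 18 kept their direction and call in every alternative that could be fitted, and ADAMTS2, ADAMTS9, MMP2 and MMP14 each lost the call in at least 1. The number of all genes called was 4074, and it was 2612 at a threshold of 0.01.

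Only 2 members changed sign, and neither passed in any alternative. Under median-ratio scaling the log2 fold change of MMP23B was 0.012 and that of TIMP1 was 0.037. With 1 library left out, MMP23B ranged from -0.096 to 0.098 and TIMP1 from -0.11 to 0.069, and the cause was not tested.

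With the replicate number as a block, 13 members were higher and 9 lower, with ADAMTS2 lost (adjusted p = 0.0893) and MMP9 gained (0.000627). The numbers did not pair the samples. Same-numbered libraries had correlations of deviations of -0.436, -0.112 and -0.403, and no library correlated best with its own number. Control 1 correlated with TAZ 2 at 0.534, control 2 with TAZ 3 at 0.552 and control 3 with TAZ 1 at 0.691. The remaining pairs were negative. Whether libraries shared a source or batch under another numbering was not tested, and no fit took it into account.

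Genes under 10 fragments over the 6 libraries, 5 of the members, could not be compared at this depth. The number of libraries, 3 in each group, limits the precision of all others.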
